A study of Mus musculus with 16 samples.

Results

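The 10 genes described here encode ADAMTS proteases, secreted metalloproteinases with thrombospondin type 1 repeats: Adamts1, Adamts2, Adamts3, Adamts4, Adamts5, Adamts6, Adamts9, Adamts12, Adamts14 and Adamts15. They were taken by gene name from a table of 49315 genes, which holds 19 ADAMTS proteases in all. RNA had been sequenced from tail intervertebral discs of 16 mice, with 4 neighbouring coccygeal discs pooled per mouse and the cartilaginous endplate shaved off. The design crossed genotype with injury. There were 3 wild-type mice with intact discs, 4 wild-type mice with injured discs, 4 Adam8EQ mutant mice with intact discs and 5 Adam8EQ mutant mice with injured discs. Adam8 encodes a membrane-bound ADAM metalloproteinase, a relative of the ADAMTS enzymes. The labels name the allele Adam8EQ without describing it, the series title sets the mutant against DBA, and the way of injury, the time after it and the age of the mice are not given in the sources used here.

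ADAMTS proteases are made as inactive precursors, are activated by furin-like convertases and act on the extracellular matrix. Adamts4 and Adamts5 encode aggrecanases, which cut aggrecan, the large proteoglycan that holds water in the disc, and Adamts1, Adamts9 and Adamts15 encode related enzymes that cut aggrecan or versican. Adamts2, Adamts3 and Adamts14 encode procollagen N-proteinases, which remove the amino-terminal propeptide of fibrillar procollagens so that fibrils can form. Aggrecanase activity is a recognised feature of disc degeneration, and the tissue inhibitor TIMP3 is the main endogenous inhibitor of the aggrecanases.

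Depth, estimated from the deposited values, was 10220111 to 24881443 reads per library. Levels are given as TPM (transcript abundance scaled by gene length and to the same total in every library), so levels of different genes can be set side by side. Markers of notochordal and nucleus pulposus cells, the jelly-like core of the disc, summed to 15389 to 15816 TPM in intact wild-type discs, 3047 to 11134 TPM in injured wild-type discs, 7025 to 14905 TPM in intact mutant discs and 582 to 7023 TPM in injured mutant discs. Of that list of 8 genes, 6 had a median of at least 1 TPM in every group, and Shh was at 0 in all intact wild-type discs. Chondrocyte markers, 6 of 6 above that level, summed to 3562 to 16690 TPM over all libraries. Adam8 itself stood at 1.24 to 1.69 TPM in intact and 3.52 to 66.3 TPM in injured wild-type discs, against 0.956 to 2.97 and 16.2 to 264.1 TPM in the mutant groups, which does not check an altered allele. In bulk tissue, fewer cells of a type and less RNA per cell cannot be told apart.

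In intact wild-type discs the most abundant member was Adamts6, a protease of the microfibril-associated branch, at 137.2 ± 5.08 TPM (mean ± SD, n = 3). Adamts1 followed at 73.4 ± 11.5 TPM. Adamts2 (30.7 ± 5.76 TPM), Adamts5 (28.0 ± 5.59 TPM) and Adamts12 (11.4 to 29.2 TPM) came next and overlapped one another in order. Adamts14 stood at 7.89 ± 1.90 TPM, Adamts3 at 3.19 ± 1.01 TPM and Adamts9 at 1.09 ± 0.243 TPM, each clear of its neighbours in that order. Adamts4 (0.395 ± 0.353 TPM) and Adamts15 (0.298 ± 0.0332 TPM) were lowest and overlapped. Of the aggrecanase pair, Adamts5 was far above Adamts4 in intact wild-type discs, and Adamts4 amounted to between 0.234% and 3.17% of the Adamts5 level in those 3 libraries.

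**Figure D1:**
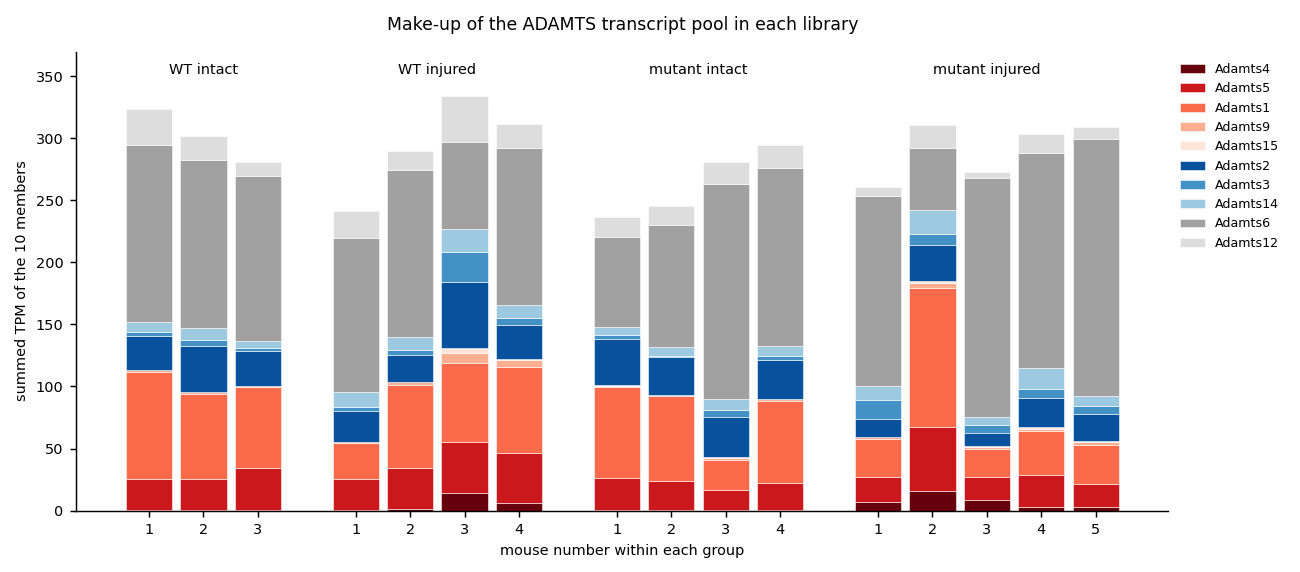
Summed TPM of the 10 members in each library, stacked by gene, with the mouse number within each group on the horizontal axis. The totals lie between 236.3 and 334.1 TPM in every library, while the Adamts6 share ranges from 16.3% in injured mutant mouse 2 to 70.7% in injured mutant mouse 3.

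The summed level of the 10 members was 302.2 ± 21.4 TPM in intact wild-type discs (n = 3), 294.2 ± 39.6 TPM in injured wild-type discs (n = 4), 264.4 ± 27.8 TPM in intact mutant discs (n = 4) and 291.4 ± 23.0 TPM in injured mutant discs (n = 5) and the ranges of all 4 groups overlapped. The plot of the pool by library shows that its make-up varied more than its size. Adamts6 made up 44.1% to 47.3% of it in intact wild-type discs and 16.3% to 70.7% in injured mutant discs. Adamts4 made up at most 0.262% of the pool in any intact library, 0.138% to 4.33% in injured wild-type discs and 0.843% to 4.96% in injured mutant discs. The Adamts4 level reached 12.5% to 44.8% of the Adamts5 level in injured mutant discs and 1.32% to 35.4% in injured wild-type discs.

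With injury, the members that passed the test were Adamts4, Adamts3 and Adamts9, all higher, and Adamts2, which was lower in mutants. Changes are differences of log2(TPM + 1) with the standard error of the limma fit, tested over 24188 genes that had at least 1 TPM in at least 3 libraries, with Benjamini-Hochberg adjustment and a threshold of 0.05. All 10 members were tested, but Adamts4 reached 1 TPM in 8 injured and 0 intact libraries and Adamts15 in 3 injured and 0 intact libraries, so both entered the test only through the injured discs. Injury averaged over both genotypes called 3 of 10 members, all higher, where 32.5% of all tested genes were called (15.2% higher and 17.3% lower). In mutants it called 2 of 10, 1 in each direction, where 30.8% of all genes were called (13.1% higher and 17.7% lower). In the wild type it called 0 of 10 by limma, where 0.116% of all genes were called. There 2 of the 10 members had an unadjusted p under 0.05, beside 4155 of the 24188 tested genes. Voom on estimated reads, an alternative chosen after seeing the data, also called 0 members in the wild type. The share of members called is no higher than that of all genes in the averaged and the mutant comparisons. The median change of the 10 members was 0.41 in the wild type and 0.40 in mutants, against 0.01 and -0.08 over all tested genes. Adamts4 and Adamts15, to which a fall was hardly open, are among the 10, so this median cannot show a rise of the members as a set.

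**Figure D2:**
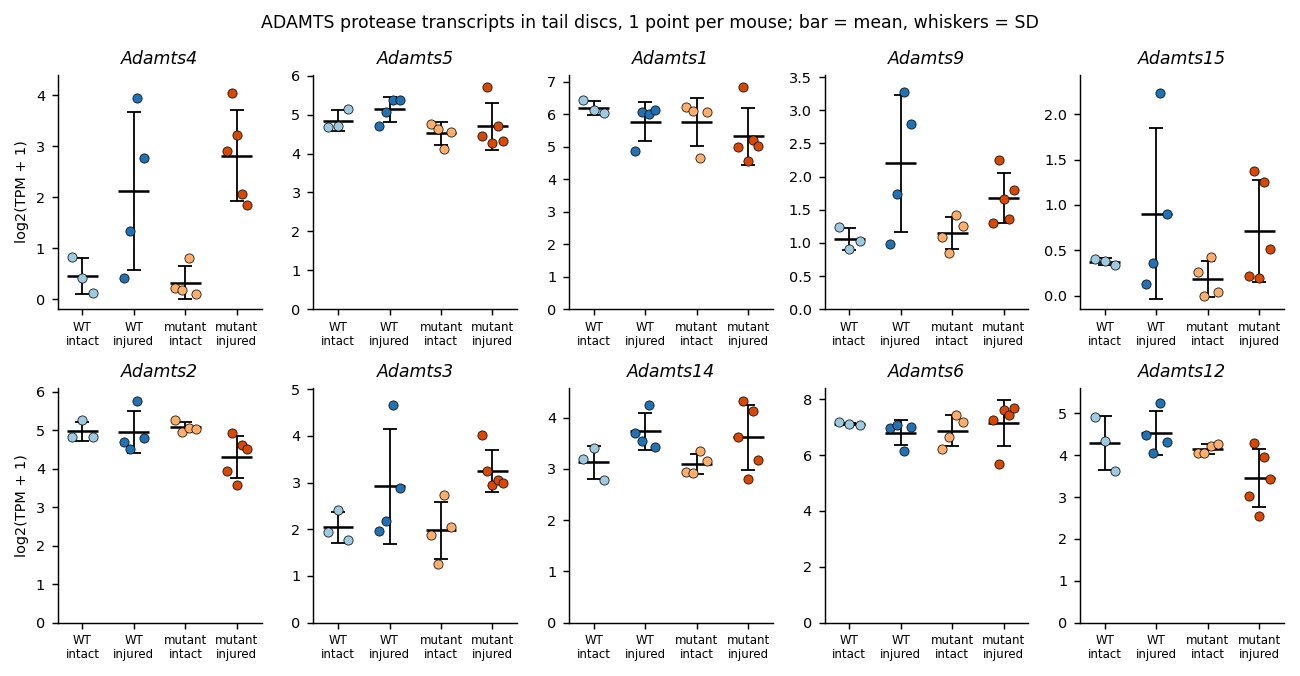
Each panel plots log2(TPM + 1) of 1 member on the vertical axis for the 4 groups, 1 point per mouse, with the mean as a bar and the SD as whiskers. Adamts4 is at or below 0.83 on this scale in all 7 intact libraries, and only injured wild-type mouse 1 of the 9 injured libraries falls in that range.

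Among the proteoglycan-cleaving members, Adamts4 changed most. Its values in intact discs were 0.776, 0.327 and 0.0806 TPM in the wild type and 0.168, 0.131, 0.737 and 0.0644 TPM in mutants. Those in injured discs were 0.333, 1.54, 14.5 and 5.81 TPM in the wild type and 6.53, 15.4, 8.27, 3.15 and 2.61 TPM in mutants. All 5 injured mutants lay above all 4 intact mutants, whereas in the wild type injured mouse 1 lay within the intact range. The change was 2.49 ± 0.60 in mutants (adjusted p = 0.00697), 1.67 ± 0.68 in the wild type (adjusted p = 0.245) and 2.08 ± 0.45 averaged over genotypes (adjusted p = 0.00384) by limma. The intact values rest on an estimated 1 to 12 reads, so no ratio is given, and the added constant shrinks a change at such low levels. With a constant of 0.1 the change in mutants was 4.30 (limma adjusted p = 0.00357), and voom on estimated reads gave 4.67 (adjusted p = 0.0226).

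Adamts4 (chr1:171250421-171260637, plus strand, GRCm38) has few reads in intact discs, and the use of strand in the counting is not given in the sources used here, so reads from the opposite strand cannot be told apart from its own. Within the mutants whose library names begin with A8 (2 injured, 2 intact) the Adamts4 change was 3.27 (limma adjusted p = 0.0471), and within those that begin with M (3 injured, 2 intact) it was 1.93 (limma adjusted p = 0.200). Without injured mutant mouse 2, the highest library, the change in mutants was 2.19 (limma adjusted p = 0.0160). The wild-type change was 1.06 without injured wild-type mouse 3 (limma adjusted p = 0.558) and 0.97 with the skeletal muscle score as a covariate (adjusted p = 0.680). Macrophage markers, 8 of 8 with a median of at least 1 TPM in every group and none at 0, summed to 160.4 to 260.0 TPM in intact and 272.0 to 8225 TPM in injured libraries. Neutrophil markers, with 1 to 5 of 9 at such a median per group and of which Ly6g and Mpo were at 0 in both intact groups, summed to 5.73 to 17.3 TPM in intact and 9.83 to 884.3 TPM in injured libraries. The part of these cells in the Adamts4 result was not tested.

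Adamts5, the more abundant gene of the aggrecanase pair in intact discs, did not pass the test in any comparison. It stood at 24.5, 25.1 and 34.5 TPM in intact and at 25.2, 32.7, 40.9 and 40.7 TPM in injured wild-type discs. In mutants it stood at 26.1, 24.0, 16.2 and 22.4 TPM in intact and at 20.8, 51.6, 18.5, 25.2 and 18.9 TPM in injured discs. The groups overlapped in both genotypes, and 4 of 5 injured mutants lay within the intact range, with mouse 2 far above it. The change averaged over genotypes was 0.24 ± 0.20 (limma adjusted p = 0.381). Adamts5 (chr16:85856173-85901828, minus strand, GRCm38) lies beside Adamts1 (chr16:85793827-85803113, minus strand), with 53059 bases between them.

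Adamts1, a versicanase and aggrecanase gene, had the highest mean after Adamts6 in both intact groups and also passed no test. Its levels were 86.5, 68.9 and 64.9 TPM in intact and 28.6, 66.8, 63.2 and 68.9 TPM in injured wild-type discs. In mutants they were 73.2, 68.4, 24.1 and 65.7 TPM in intact and 30.6, 112.6, 22.6, 36.1 and 31.3 TPM in injured discs. Single libraries stood apart in both genotypes. In the wild type injured mouse 1 was far below all others. In mutants injured mouse 2 was above every intact mouse and intact mouse 3 far below the other intact mice. The change averaged over genotypes was -0.44 ± 0.32 (limma adjusted p = 0.324).

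Adamts9, which encodes a versicanase and aggrecanase, rose with injury averaged over genotypes but in neither genotype alone. It stood at 1.35, 0.877 and 1.03 TPM in intact and at 0.979, 2.34, 8.73 and 5.94 TPM in injured wild-type discs. In mutants it stood at 1.13, 0.794, 1.67 and 1.38 TPM in intact and at 1.47, 3.75, 2.18, 1.58 and 2.48 TPM in injured discs. The 3 higher injured wild-type mice were above every intact library, and the groups overlapped in both genotypes. The change was 0.84 ± 0.28 averaged over genotypes (limma adjusted p = 0.0358), 1.14 ± 0.43 in the wild type (adjusted p = 0.217) and 0.53 ± 0.38 in mutants (adjusted p = 0.311).

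The Adamts9 call was marginal: it was lost under 18 of 29 alternatives, among them 11 of the 16 in which 1 mouse was left out, with the change between 0.66 and 1.20 over all 29. Without injured wild-type mouse 3 the averaged change was 0.66 (limma adjusted p = 0.0667), and without injured mutant mouse 2 it was 0.76 (adjusted p = 0.0572). Without injured wild-type mouse 1, the wild-type change alone was 1.55 and passed (limma adjusted p = 0.0450). Endothelial markers, none of the 6 at 0 throughout a group but only 2 and 1 of them with a median of at least 1 TPM in intact wild-type and mutant discs, summed to 4.29 to 16.9 TPM in intact and 6.87 to 182.6 TPM in injured wild-type discs, and to 2.71 to 9.33 and 9.78 to 63.7 TPM in mutants, with both maxima in the libraries highest for Adamts9. The part of these cells in the Adamts9 result was not tested. Adamts9 (chr6:92772699-92943492, minus strand, GRCm38) overlaps exons of A730049H05Rik and Gm15737 on the other strand, which reached at most 1.69 and 3.08 TPM, so part of its low values cannot be told apart from theirs.

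Adamts15, another aggrecanase gene, was near the detection limit in intact discs. It stood at 0.328, 0.303 and 0.262 TPM in intact wild-type discs and at 0 to 0.342 TPM in intact mutant discs. Injured wild-type discs held 0.0927, 0.286, 3.69 and 0.863 TPM, and injured mutant discs 0.167, 1.59, 0.148, 1.38 and 0.423 TPM. Only 3 injured libraries exceeded 1 TPM, and both genotypes overlapped. The change averaged over genotypes was 0.53 ± 0.29 (limma adjusted p = 0.172). Of the 5 proteoglycan-cleaving members, 2 were called higher and 0 lower in the averaged comparison, where 15.2% of all tested genes were higher and 17.3% lower. In mutants 1 of the 5 was called higher and 0 lower, beside 13.1% and 17.7% of all genes. Adamts4, which is among these calls, and Adamts15 entered the test only through the injured discs. A lower call was thus hardly open to them, and these counts cannot show an excess of higher members.

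**Figure D3:**
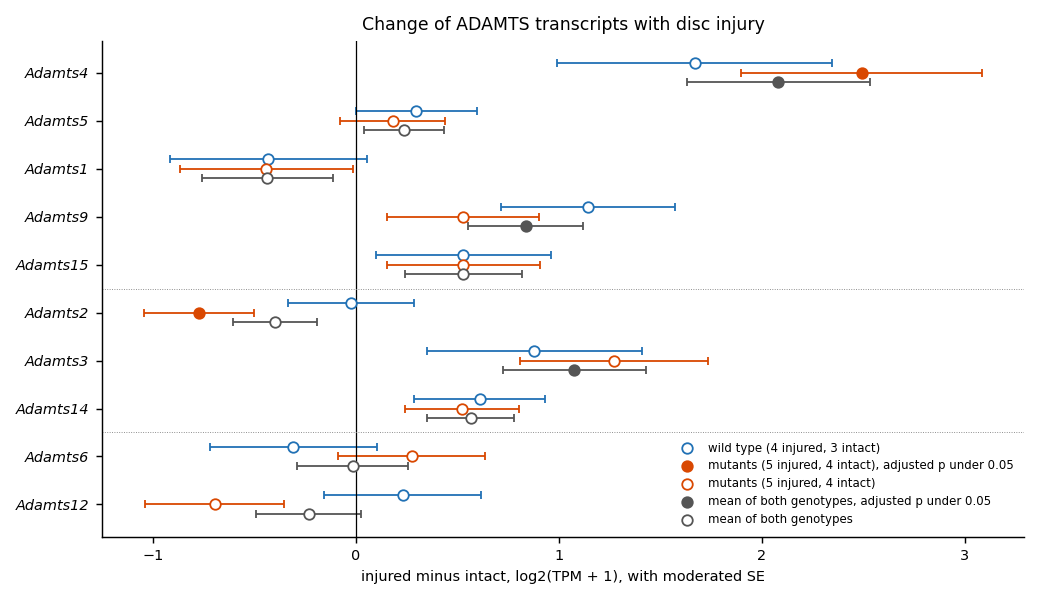
Change of each member with injury on the horizontal axis, as log2(TPM + 1) in injured minus intact discs, in wild type, in mutants and averaged over both, with the moderated standard error as whiskers and filled points for adjusted p under 0.05. Adamts4 has the largest change in each of the 3 comparisons (1.67, 2.49 and 2.08), and the lowest filled point is Adamts2 in mutants at -0.77.

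The procollagen N-proteinases moved in different directions. Adamts3, which also processes the lymphatic growth factor VEGFC, rose with injury, and Adamts2, the principal procollagen I N-proteinase, fell in mutants. The 250 bases before the RefSeq start of a gene were at hand for 6 of the 10 members (Adamts1, Adamts2, Adamts3, Adamts9, Adamts12 and Adamts14), and the 3 shown belong to the members called with injury that were among them. They are read 5′ to 3′ on the strand of the gene from RefSeq on GRCm38.p6, for Adamts9 at chr6:92943535-92943784 (minus strand), for Adamts3 at chr5:89883335-89883584 (minus strand) and for Adamts2 at chr11:50601835-50602084 (plus strand), and capitals mark matches to the motifs searched.
Adamts9: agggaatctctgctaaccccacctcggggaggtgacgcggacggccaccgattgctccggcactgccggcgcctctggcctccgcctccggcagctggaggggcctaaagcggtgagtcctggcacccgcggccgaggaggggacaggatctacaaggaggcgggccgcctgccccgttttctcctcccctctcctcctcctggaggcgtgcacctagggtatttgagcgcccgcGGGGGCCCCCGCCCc
Adamts3: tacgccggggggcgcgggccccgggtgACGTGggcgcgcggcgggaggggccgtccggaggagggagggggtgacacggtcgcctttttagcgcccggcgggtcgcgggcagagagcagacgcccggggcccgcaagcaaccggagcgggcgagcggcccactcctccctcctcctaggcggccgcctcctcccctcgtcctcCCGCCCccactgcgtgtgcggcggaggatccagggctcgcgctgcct
Adamts2: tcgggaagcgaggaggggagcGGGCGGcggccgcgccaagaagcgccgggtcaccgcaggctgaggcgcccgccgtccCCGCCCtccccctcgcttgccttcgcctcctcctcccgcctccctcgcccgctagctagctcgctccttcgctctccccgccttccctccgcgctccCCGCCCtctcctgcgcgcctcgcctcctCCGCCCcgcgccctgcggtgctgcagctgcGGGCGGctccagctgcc
Both strands were searched for 8 motifs: the GC box GGGCGG, the TATA box (TATAAA), the AP-1 site TGANTCA, an NF-kappaB site, the C/EBP site TTGCNNAA, the STAT site TTCNNNGAA, the RUNX site TGTGGT and the hypoxia core ACGTG. Adamts2 held 5 GC boxes, Adamts3 held 1 GC box and 1 hypoxia core, and Adamts9 held 1 GC box that overlaps 1 NF-kappaB match. Over 32841 promoters of the same length the GC box occurred in 32.7%, the hypoxia core in 16.6%, the NF-kappaB site in 7.25%, TATAAA in 12.4%, the AP-1 site in 6.75%, the C/EBP site in 9.57%, the STAT site in 7.02% and the RUNX site in 14.0%. The G and C content of the windows was 71.2% for Adamts9, 78% for Adamts3 and 78% for Adamts2. These matches describe letters in a window and were not tied to the expression values by any test.

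Adamts3 stood at 2.81, 4.34 and 2.43 TPM in intact and at 2.89, 3.55, 24.4 and 6.33 TPM in injured wild-type discs. In mutants it stood at 2.68, 1.39, 5.66 and 3.14 TPM in intact and at 15.3, 8.51, 6.71, 7.29 and 6.93 TPM in injured discs. All 5 injured mutants lay above all 4 intact mutants, while in the wild type only injured mice 3 and 4 exceeded the intact range. The change was 1.08 ± 0.35 averaged over genotypes (limma adjusted p = 0.0300), 1.27 ± 0.46 in mutants (adjusted p = 0.0501) and 0.88 ± 0.53 in the wild type (adjusted p = 0.395). Without injured wild-type mouse 3 the averaged change was 0.78 (limma adjusted p = 0.0320) and the wild-type change 0.30 (adjusted p = 0.804), while the change in mutants, 1.27, then passed (adjusted p = 0.00758). The change in mutants also passed by limma with a constant of 0.1 (adjusted p = 0.0419) and a filter at a mean of 5 TPM (0.0454). It passed with median-of-ratios scaling (0.0410), quantile normalization (0.0445), sample weights (0.0160), only the groups compared (0.0184) and voom (0.0496). Leaving out intact mutant mouse 3 or injured wild-type mouse 1 or 2 let it pass too, and under the remaining alternatives it did not pass. Wild-type mice enter the comparison in mutants only through the spread shared by the fit. The change in mutants stayed at 1.27 without injured wild-type mouse 1, 2 or 3, so those fits do not check its size. Within the mutants named A8 the change was 2.07 (limma adjusted p = 0.0923) and within those named M it was 0.60 (adjusted p = 0.589). With the skeletal muscle score as a covariate the averaged change was 0.93 and no longer passed (limma adjusted p = 0.0886). Muscle markers summed to 140.0 to 552.3 TPM in intact and 58.5 to 161.7 TPM in injured wild-type discs, and to 86.7 to 100.2 and 19.6 to 421.1 TPM in mutants.

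Adamts2 was lower in injured than in intact mutants. Intact mutants held 37.7, 30.2, 32.4 and 32.0 TPM and injured mutants 14.4, 29.4, 10.9, 23.6 and 21.9 TPM, so that the groups did not overlap. In the wild type, intact discs held 27.3, 37.4 and 27.5 TPM and injured discs 25.1, 22.0, 53.2 and 27.0 TPM, with 3 of 4 injured mice below all intact mice and mouse 3 above them. The change was -0.77 ± 0.27 in mutants (limma adjusted p = 0.0423), -0.02 ± 0.31 in the wild type (adjusted p = 0.978) and -0.40 ± 0.21 averaged (adjusted p = 0.152). The call in mutants was narrow and was lost under 18 of 31 alternatives. The same data scaled by median of ratios gave -0.69 (adjusted p = 0.0741) and quantile normalization gave -0.70 (adjusted p = 0.0523) in limma. Within the mutants named A8 the change was -0.69 (limma adjusted p = 0.285) and within those named M it was -0.82 (adjusted p = 0.212). Without injured wild-type mouse 3 the averaged change was -0.53 and passed (limma adjusted p = 0.0389). Markers of annulus fibrosus and tendon, the collagen-rich outer ring, 6 of 6 detected, summed to 3522 to 4077 TPM in intact and 1638 to 3010 TPM in injured mutants, against 3101 to 4188 and 4085 to 7451 TPM in the wild type. Their part in the Adamts2 result was not tested.

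Adamts14, the remaining procollagen N-proteinase gene, was higher in every injured than in every intact wild-type disc without passing the test. Intact wild-type discs held 8.10, 9.68 and 5.90 TPM and injured ones 12.1, 10.8, 18.1 and 9.84 TPM. Intact mutants held 6.69, 6.60, 9.16 and 7.93 TPM and injured mutants 11.4, 19.1, 5.95, 16.6 and 8.08 TPM. In mutants, injured mice 3 and 5 lay within or below the intact range. The change was 0.57 ± 0.21 averaged over genotypes (limma adjusted p = 0.0549), 0.61 ± 0.32 in the wild type (adjusted p = 0.339) and 0.52 ± 0.28 in mutants (adjusted p = 0.176). The averaged change lay near the threshold and passed with median-of-ratios scaling (0.60, limma adjusted p = 0.0418), with quantile normalization (0.61, adjusted p = 0.0271) and with a filter at a mean of 5 TPM (adjusted p = 0.0471). It also passed with only the mutants named A8 (0.83, limma adjusted p = 0.0214), without injured mutant mouse 3 (0.67, adjusted p = 0.0172) and without injured mutant mouse 5 (0.62, adjusted p = 0.0420). Of the 10 members, 3 had injured and intact groups without overlap in mutants (Adamts4 and Adamts3 higher, Adamts2 lower), where 27.2% of all tested genes did, and 1 in the wild type (Adamts14), where 15.6% did.

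Adamts6 and Adamts12 belong to other branches of the family, and neither was called with injury. Adamts6 stood at 132.9 to 142.8 TPM in intact wild-type discs and stood at 124.6, 134.5, 70.1 and 127.1 TPM in injured ones. In mutants it stood at 72.8, 98.5, 173.0 and 143.7 TPM in intact and at 152.9, 50.6, 193.2, 173.7 and 206.6 TPM in injured discs. Both libraries that were highest for most other members, injured wild-type mouse 3 and injured mutant mouse 2, were the lowest of their group for Adamts6. Its change was -0.31 ± 0.41 in the wild type (limma adjusted p = 0.723) and 0.28 ± 0.36 in mutants (adjusted p = 0.600). Adamts12, which encodes a protease that cuts cartilage oligomeric matrix protein (COMP), stood at 29.2, 19.4 and 11.4 TPM in intact and 21.5, 15.7, 37.3 and 18.9 TPM in injured wild-type discs. In mutants it stood at 15.5, 15.7, 17.7 and 18.1 TPM in intact and at 7.17, 18.4, 4.81, 14.7 and 9.85 TPM in injured discs, with 4 of 5 injured mutants below all intact mutants. By limma its change was -0.70 ± 0.34 in mutants (adjusted p = 0.136), and the wild-type change was 0.23 ± 0.39 (adjusted p = 0.785).

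Genotype called no member. In intact discs limma called 0 of 10, with 0 at an unadjusted p under 0.05, where 0.0165% of all genes were called. In injured discs it called 0 of 10, where 0.918% of all genes were called, and voom called 0 in both. An unadjusted p under 0.05 was held in injured discs by 2 of the 10 members, beside 4912 of the 24188 tested genes. The mutant and wild-type ranges overlapped for all 10 members in injured discs, where 4.77% of all tested genes had ranges that did not overlap. The nearest to a call was Adamts12, at 11.0 ± 5.55 TPM in injured mutants (n = 5) against 23.3 ± 9.61 TPM in injured wild type (n = 4), a difference of -1.08 ± 0.34 (limma adjusted p = 0.110). Adamts2 differed by -0.64 ± 0.27 (adjusted p = 0.206). Adamts4 differed by 0.69 ± 0.60 (limma adjusted p = 0.537) and Adamts5 by -0.44 ± 0.26 (adjusted p = 0.356). The wild-type libraries all carry names beginning with D and the mutants A8 or M, so the naming and the genotype cannot be told apart.

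Whether the response to injury differed between genotypes was tested by the interaction term. It called 0 of 10 members by limma, with 0 at an unadjusted p under 0.05, where 0% of all genes were called, and voom called 0 of 10. The interaction was 0.82 ± 0.90 for Adamts4 (adjusted p = 0.830), -0.75 ± 0.41 for Adamts2 (adjusted p = 0.657) and -0.93 ± 0.52 for Adamts12 (adjusted p = 0.668) by limma. The calls made in mutants and missed in the wild type were thus not shown to differ between genotypes, and the standard errors of the interaction ranged from 0.40 to 0.90 over the members.

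The members did not vary independently among mice. No share over all genes was taken for the counts given here, so they do not set the members apart from other genes. Injured wild-type mouse 3 had the highest value of its group for 8 of 10 members, and injured mutant mouse 2 likewise for 8 of 10. Both were lowest for Adamts6, and both had the highest macrophage marker sum of their group, 3991 and 8225 TPM. Both also had the lowest chondrocyte marker sum of their group, 4694 and 3562 TPM. The part of these cell types in the Adamts6 levels was not tested. Injured mutant mouse 3 was lowest for 7 members and injured wild-type mouse 1 for 6. Injured wild-type mouse 1 also had the highest notochordal sum of its group (11134 TPM) and the lowest macrophage sum (272.0 TPM). Among intact mutants, mouse 3 held the lowest notochordal sum (7025 TPM), the highest macrophage sum (260.0 TPM) and the highest level of 6 members.

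Across the 9 injured libraries, the genes most like each member in log2(TPM + 1), among 11899 with a mean of at least 5 TPM, were listed as a description. Adamts1 and its chromosomal neighbour Adamts5 were among each other's closest pair of genes, with a Pearson r of 0.953. The other gene of the pair was Pdxk for Adamts1 (0.932) and Ubald1 for Adamts5 (0.964). Adamts4 was most like Cxadr (0.983), which encodes a cell adhesion receptor, and Jag1 (0.976), a Notch ligand. Adamts9 was most like Col4a1 (0.967), a basement membrane collagen, and Cdh5 (0.954), the endothelial cadherin and one of the 6 endothelial markers. Adamts12 was most like Aebp1 (0.979) and Mfap2 (0.972), and Adamts2 was most like Fndc1 (0.985) and Dock6 (0.977). Adamts3 was most like Fam171a1 (0.973) and Mcm2 (0.964), and Adamts6 most like Txlna (0.981) and Pxdc1 (0.976). Adamts14 was most like Hacd4 (0.963) and Tmem123 (0.961), and Adamts15 most like Apba1 (0.983) and Steap3 (0.974). These correlations share the same libraries, including the pair of mice that stood high for most members.

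Among the 9 other ADAMTS protease genes, 5 were tested. In mutants 3 of the 5 were lower, 0 higher and 2 did not pass, where 17.7% of all tested genes were lower and 13.1% higher. Adamts20 fell by 1.76 (± 0.47, limma adjusted p = 0.0121), from 19.1 ± 2.97 TPM (n = 4) to 6.14 ± 5.39 TPM (n = 5). Adamts17 fell by 1.29 (± 0.27, limma adjusted p = 0.00378) and Adamts10, a microfibril-associated protease gene, fell by 0.66 (± 0.12, adjusted p = 0.00203). Averaged over genotypes, Adamts7, whose product also cuts COMP, was higher by 0.88 ± 0.32 (limma adjusted p = 0.0485) beside the same 3 lower genes. In that comparison 15.2% of all tested genes were higher and 17.3% lower. Among 7 ADAMTS-like genes, which lack the protease domain, Adamtsl4 was higher and Adamtsl1 and Adamtsl2 were lower in injured mutants, and 4 did not pass. Adamtsl2 fell by 1.88 (± 0.35, limma adjusted p = 0.00181).

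**Figure D4:**
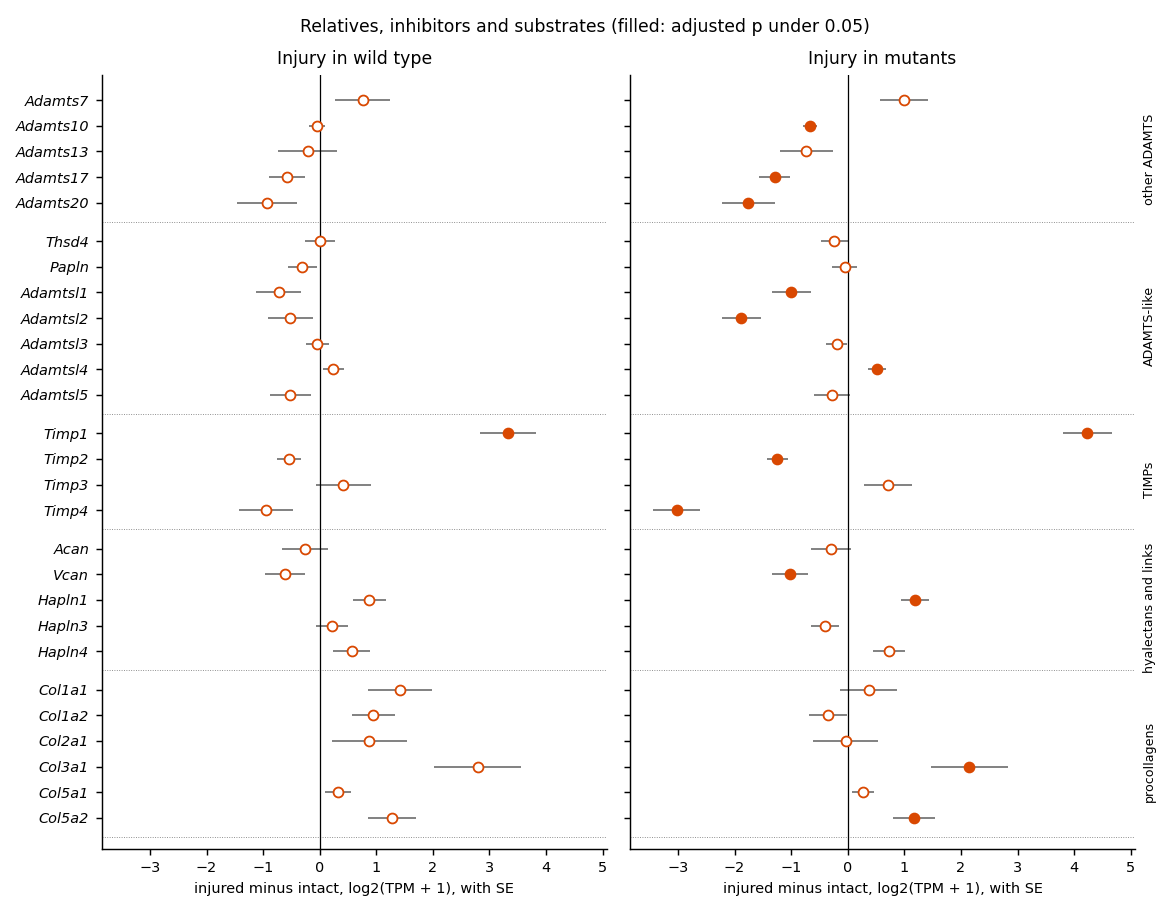
Change with injury of other ADAMTS genes, ADAMTS-like genes, TIMP inhibitors, hyalectan and link protein genes and procollagen genes, as log2(TPM + 1) on the horizontal axis, in wild type at the left and mutants at the right, with standard errors and filled points for adjusted p under 0.05. Timp1 is the single filled point in the wild type at 3.33, and mutants show filled points from -3.02 for Timp4 to 4.24 for Timp1.

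The TIMP inhibitors went in different directions. Timp1 rose by 4.24 ± 0.43 in mutants (limma adjusted p = 0.000127) and by 3.33 ± 0.49 in the wild type (adjusted p = 0.0248), and no other gene of the lists shown here was called in the wild type. Timp2 and Timp4 were lower in mutants by limma. Of all tested genes, 13.1% were higher and 17.7% lower in mutants. Timp2 fell by 1.25 (± 0.19, adjusted p = 0.000695) and Timp4 fell by 3.02 (± 0.42, adjusted p = 0.000482). Timp3, the main aggrecanase inhibitor, did not pass: it stood at 328.2 ± 103.3 TPM in intact (n = 4) and 625.4 ± 312.0 TPM in injured mutants (n = 5), a change of 0.71 ± 0.43 (limma adjusted p = 0.231).

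The aggrecan gene Acan was abundant in both mutant groups. It held 6269 ± 465.8 TPM in intact (n = 4) and 5478 ± 1979 TPM in injured mutants (n = 5), and its change of -0.29 ± 0.35 did not pass (limma adjusted p = 0.563). Vcan, which encodes versican, fell by 1.02 in mutants (± 0.31, adjusted p = 0.0236), and Hapln1, the link protein that anchors both to hyaluronan, was higher by 1.19 ± 0.25 (limma adjusted p = 0.00357). Of 8 hyalectan and link protein genes, 5 were tested, 1 was higher and 1 lower in mutants. Of all tested genes 13.1% were higher and 17.7% lower, a share that applies to each list in mutants. Among 6 procollagen genes, Col3a1 (2.15 ± 0.68, limma adjusted p = 0.0270) and Col5a2 (1.18 ± 0.37, adjusted p = 0.0271) were higher in mutants. Of the 6, 0 were lower and 4 did not pass, Col1a1 and Col2a1 among them, beside the same 13.1% and 17.7% of all genes. Fibroblast markers, 5 or 6 of 6 with a median of at least 1 TPM per group and none at 0 throughout one, summed to 2065 to 2873 TPM in intact and 4973 to 9723 TPM in injured mutants, and to 1321 to 1985 and 2164 to 6115 TPM in the wild type. Their part in the procollagen and Adamts3 results was not tested. Of 8 other substrates and partners, Fn1, Fbn1 and Vegfc were higher and Comp was lower in mutants, beside the same 13.1% and 17.7% of all genes. Comp fell by 2.54 (± 0.47, limma adjusted p = 0.00185), and Vegfc, the growth factor that ADAMTS3 processes, was higher by 1.58 ± 0.48 (adjusted p = 0.0216).

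The upstream genes on the lists changed in mutants in both directions or upwards. Of 7 convertase and procollagen-processing genes tested, Furin (0.57 ± 0.18, limma adjusted p = 0.0260) and Pcsk7 were higher and Pcsk6 and Pcolce were lower, beside 13.1% and 17.7% of all genes. Of 7 tested genes on a list of cytokines, drawn up as possible inducers of aggrecanases, 6 were higher and 0 lower in injured mutants. These were Il11, Lif, Il1b, Il6, Tnf and Osm. Of all tested genes, 13.1% were higher and 17.7% lower. The list was chosen with earlier results of these data known, so its count cannot show that such a pathway was at work. Il1b was higher by 3.30 ± 0.98 (limma adjusted p = 0.0202) and Tnf by 2.84 ± 0.68 (adjusted p = 0.00693). Il11 reached 149.4 to 780.0 TPM in injured mutants against 7.48 to 148.7 TPM in injured wild type, and its difference of 3.52 ± 0.71 between those groups passed (limma adjusted p = 0.0373). The interaction called 0 of the 7 tested cytokine genes, where 0% of all genes were called. Over all genes, genotype in injured discs called 222. It called 2 with only the mutants named A8, 5 in a fit without the other groups and 2253 without injured wild-type mouse 3. No alternative fit is given here for Il11. The naming of the libraries and the genotype cannot be told apart. Macrophage marker sums were higher in injured than in intact mutant discs, and their part in these cytokine levels was not tested.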

How the data were processed

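RNA from tail discs of 16 mice (4 discs pooled per mouse) was extracted with Trizol, depleted of ribosomal RNA and made into libraries with a NEBNext Ultra II kit, per the labels' protocols, although the molecule field names polyA RNA. The authors deposited TPM values for 49315 genes in 1 table. Per the submitters' processing notes, bcl2fastq 2.20 and GRCm38 were used, while the aligner, counter, strand setting and annotation are not given in the sources used here. Groups and mouse numbers came from the titles.

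From the deposited TPM values, log2(TPM + 1) was tested with limma 3.58.1 in R 4.3.3, with a mean-variance trend, all 16 libraries in 1 fit with a mean per group and no covariate, keeping the 24188 genes that reached 1 TPM in 3 or more libraries. The 6 contrasts were each adjusted by the Benjamini-Hochberg method at 0.05. The same code was tested on simulated data. Gene positions came from GENCODE release M21, in which 99.5% of identifiers were found. Reads were estimated from TPM and exon length: 94.1% to 94.9% of low values lay within 0.05 of a whole number. Since these are estimates, no counting interval was drawn from them.

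All 10 members were tested in every comparison, other named genes come from lists of pathway and marker genes, and 2 genes most like each member are listed. The members and lists were chosen with earlier results of these data known. Each library comes from its own animal, and p-values measure the spread between them.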

Additional observations from a re-analysis of the deposited data

Results flagged for a closer look

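In 30 groups of 4 or 5 mice tested (10 members in 3 groups), 9 single values stood apart from the rest of their group. The rule compares the gap to the nearest value with the whole range, on TPM without the logarithm used in the tests. It flags about 1 in 20 groups by chance if values are normally distributed, which was not checked. No rate over all genes was taken, so the 9 cannot be read as an excess. Of the 9, 3 belong to injured wild-type mouse 3: Adamts2 at 53.2 TPM (others 22.0 to 27.0), Adamts3 at 24.4 TPM (others 2.89 to 6.33) and Adamts6 at 70.1 TPM, below the others (124.6 to 134.5). Injured mutant mouse 2 stood apart for Adamts1 at 112.6 TPM (others 22.6 to 36.1) and Adamts5 at 51.6 TPM (others 18.5 to 25.2). Intact mutant mouse 3 stood apart for Adamts1 at 24.1 TPM, below the others (65.7 to 73.2), and for Adamts4 at 0.737 TPM (others 0.0644 to 0.168). The remaining values were Adamts1 in injured wild-type mouse 1, at 28.6 TPM (others 63.2 to 68.9), and Adamts3 in injured mutant mouse 1, at 15.3 TPM (others 6.71 to 8.51). Members measured in the same library are not independent.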

How the results depend on the processing

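Over the members and the 6 comparisons, 1669 values kept their direction and their side of the threshold under the alternatives run, 48 lost a call, 21 gained one and 84 changed sign. The calls of Adamts4 held under 28 of 30 alternatives in mutants and 27 of 29 averaged over genotypes, those of Adamts3 (averaged) under 22 of 30, of Adamts2 (mutants) under 13 of 31 and of Adamts9 (averaged) under 11 of 29. The counts for mutants include fits that left out a wild-type mouse. Such a fit cannot alter the change in mutants, only the spread shared by the fit, so it is a weak check. In mutants, where 2 members were called, 1 was called with no filter on low values, without the mean-variance trend, with the replicate block, with the library name prefix as covariate and with only the mutants named A8, and 0 with only those named M or when a log2 change of at least 1 was required. Averaged over genotypes, where 3 were called, 0 were called with only the mutants named M and with a required change of 1, and 1 with the muscle score as covariate. Same-numbered mice did not deviate together: of 21 pairs, 1 had a correlation over 0.1 (range -0.22 to 0.15), so the replicate block rests on a shared number alone.

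None of the values that changed sign had been called. With median-of-ratios scaling they were Adamts6 averaged over genotypes (0.024) and, in the interaction, Adamts14 (0.0050) and Adamts1 (0.088). With quantile normalization they were the genotype difference in intact discs of Adamts3 (0.0059) and Adamts14 (0.00039), that of Adamts14 in injured discs (0.045), and the interaction of Adamts14 (0.045) and Adamts1 (0.053). Sample weights gave -0.10 for Adamts12 in the wild type and 0.14 for Adamts6 averaged. The replicate block gave interactions of 0.041 for Adamts14 and 0.12 for Adamts1. With the name prefix as covariate, the genotype difference in intact discs was 0.12 for Adamts4, 0.058 for Adamts14 and 0.0035 for Adamts1, that in injured discs was -0.27 for Adamts6 and 0.085 for Adamts1, and the interaction of Adamts1 was 0.081. With only the mutants named M, the difference in intact discs was 0.35 for Adamts3, 0.12 for Adamts14 and 0.20 for Adamts6, and the interaction was -0.28 for Adamts3, -0.11 for Adamts15 and 0.0066 for Adamts1. With only those named A8, it was -0.088 for Adamts9 in intact discs, 0.24 for Adamts14, -0.32 for Adamts6 and 0.13 for Adamts1 in injured discs, and 0.44 for Adamts14, 0.17 for Adamts1 and 0.083 for Adamts5 in the interaction. With the muscle score, injury in the wild type gave 0.18 for Adamts6 and -0.019 for Adamts5, injury averaged gave 0.23 for Adamts6, genotype in intact discs gave -0.17 for Adamts9 and 0.23 for Adamts6, and the interaction was 0.35 for Adamts1 and 0.19 for Adamts5. The cause was not tested.

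Leaving out 1 mouse at a time gave 0 to 1 called members in the wild type, 1 to 3 in mutants and 1 to 3 averaged. It moved Adamts2 from -0.29 to 0.12 and Adamts12 from -0.10 to 0.54 in the wild type, Adamts5 in mutants from -0.075 to 0.28 and Adamts6 averaged from -0.13 to 0.17. The genotype difference in intact discs ran from -0.30 to 0.062 for Adamts4, -0.31 to 0.18 for Adamts3, -0.21 to 0.11 for Adamts14 and -0.49 to 0.16 for Adamts12. In injured discs it ran from -0.30 to 0.082 for Adamts14 and -0.45 to 0.25 for Adamts15. The interaction ran from -0.27 to 0.12 for Adamts14, -0.26 to 0.44 for Adamts15 and -0.39 to 0.18 for Adamts1.

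Over all genes, injury in the wild type called 28 genes and 452 without injured wild-type mouse 1. Genotype in injured discs called 222 genes, 2253 without injured wild-type mouse 3, 1070 with sample weights, 11 with the replicate block, 2 with only the mutants named A8 and 5 in a fit without the other groups. Injury in mutants called 7438 genes, 725 with only the mutants named M, 3583 with only those named A8 and 48 at a required change of 1. Injury averaged over genotypes called 7872 and 3306 with only the mutants named M. Of the genes called in the wild type 92.9% were higher, or 77.1% after quantile normalization, of those called in mutants 42.6%, or 52.1% with median-of-ratios scaling and 35.4% by voom, and of those called between genotypes in injured discs 20.7% were higher, against 47.5% with median-of-ratios scaling and 34.4% after quantile normalization. A filter at a mean of 5 TPM gave no value for Adamts4, Adamts9 and Adamts15, and fitting only the groups compared gave no averaged or interaction value. Adamts4, Adamts9 and Adamts15 rest on few reads in intact discs, which limits the size of their changes.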
